A study of Mus musculus with 12 samples.

Results

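Mitochondrial carriers, the transporters of the Slc25a family, were described in the brain of newborn mice with and without the kinase KIS. The members were the genes of the deposited array table whose symbol begins with Slc25a, taken from the probesets of the main type, with any gene in a stretch of chromosome 1 around Uhmk1, the gene of KIS, to be left out. This gave 40 genes with 490 probesets, out of 17550 symbols in the table, and 0 carriers lay in the stretch to be left out. The RefSeq gene list (GRCm38.p6) holds 47 protein-coding genes of this name, of which 7 (Slc25a18, Slc25a43, Slc25a47, Slc25a48, Slc25a51, Slc25a53 and Slc25a54) were not matched to a symbol of the table and were not analysed here.

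Carriers of this family sit in the inner membrane of the mitochondrion and move metabolites between the cytosol and the matrix, mostly by exchanging one molecule for another. They share a fold of transmembrane helices in repeated units, and their substrates range from ADP, ATP and phosphate to amino acids, cofactors, iron and protons. Neurons depend on them for the export of ATP, for the shuttle that brings reducing equivalents from glycolysis into the matrix, and for the transport of glutamate.

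Total brain RNA of 12 newborn females was hybridized to exon arrays, 1 array per brain. Of these, 6 were wildtype (KIS +/+) and 6 were KIS-ko (KIS -/-), and each of 6 litters gave 1 brain of either genotype. The line was backcrossed to C57BL6/N, received no treatment and lacks Uhmk1 in the whole animal. The value of a probeset, a set of short probes for an exon or a part of it, is its PLIER signal as deposited, and a gene was given the mean of log2(signal + 16) over its probesets. Probesets whose standard deviation exceeded 0.4 of their mean in a genotype were rejected, as in the methods of the study, which left 463 probesets of the 40 carriers, at least 3 for every carrier. In whole brain, fewer cells of a type and less RNA per cell cannot be told apart.

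The genotype labels were checked on Uhmk1, whose gene value lay between 10.89 and 11.07 in the wildtype brains and between 8.62 and 8.98 in the KIS-ko brains. The 12 arrays correlated with each other between 0.977 and 0.990, and none was a copy of another. Their median signals lay between 460 and 526, lower for the KIS-ko brain than for its littermate except in litter 4. Neuronal markers were measured well (10 of 10 had most of their probesets above the controls described next). The summed signal of these neuronal markers was 55330 to 60000 in wildtype and 53470 to 58330 in KIS-ko brains.

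The first question was which carriers were measured in the neonate brain. Intron control probesets, which lie outside exons, served as a background. Their median signal was 114 and their 95th percentile 713. Of the 463 carrier probesets, 218 (47.1%) had a mean signal above that percentile, against 44.6% of all probesets kept. Most of the probesets lay above it in 18 of 40 carriers (45%, background 35.4%), and all of them in 5, namely Slc25a3, Slc25a5, Slc25a12, Slc25a17 and Slc25a38 (12.5%, background 7.27%). None lay above it in 7 carriers, Slc25a2, Slc25a21, Slc25a29, Slc25a31, Slc25a33, Slc25a35 and Slc25a37 (17.5%, background 33.9%). Signals of different genes depend on their probes, so each gene is set only against the controls.

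**Figure D1:**
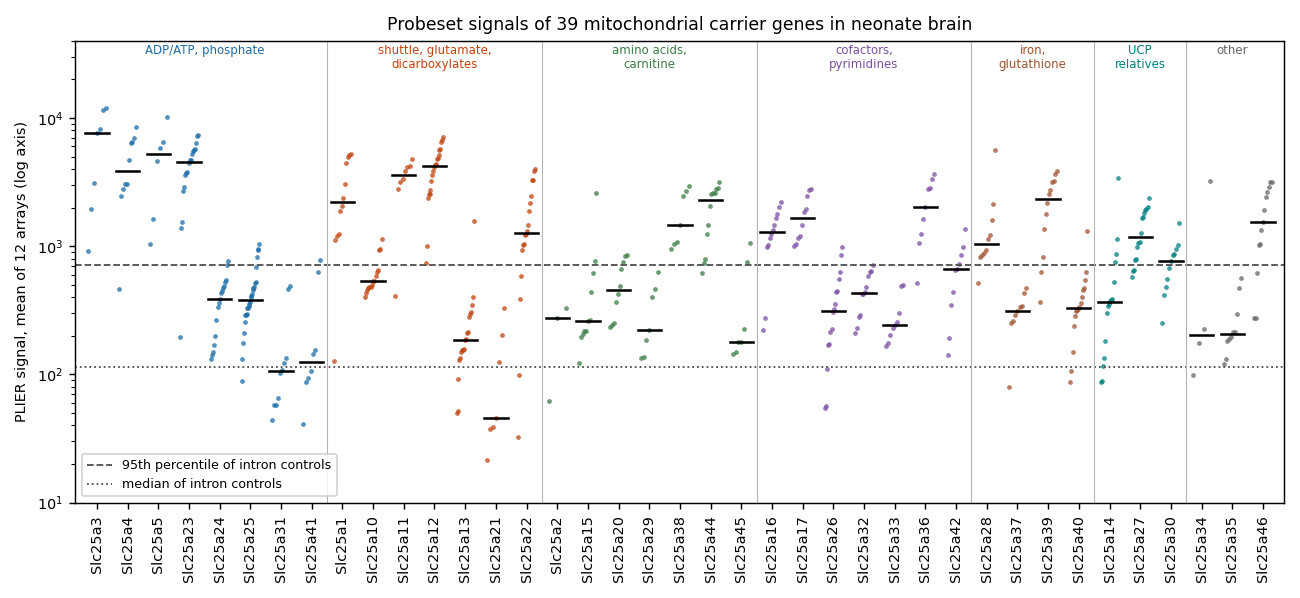
Mean PLIER signal over the 12 arrays (log axis) of each kept probeset (points) of 39 of the 40 carriers, ordered by role, with the median of each gene (black bar). The dashed and dotted lines are the 95th percentile (713) and the median (114) of the intron control probesets, and most points lie above the dashed line in 18 of the 40 carriers.

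Among the carriers of adenine nucleotides and phosphate, 46 of 102 probesets lay above the controls, and they divided by gene. Slc25a3 (chromosome 10, 90579373 to 90586444; positions are those of the table, whose genome build is not named) encodes the phosphate carrier that supplies ATP synthase. All 7 of its kept probesets were above the controls, between 922 and 11870, while an eighth at its low-coordinate end had a signal of 34.5 and was rejected. Slc25a4 (chromosome 8, 47292543 to 47296332) and Slc25a5 (chromosome X, 34335652 to 34338658) encode ADP/ATP carriers, and 9 of 10 and 6 of 6 of their probesets were above the controls. The table marks all 6 probesets of Slc25a5 as open to cross-hybridization, so other genes of similar sequence may add to them. Slc25a31 (chromosome 3, 40512885 to 40529439), the ADP/ATP carrier of male germ cells, had 0 of 10 kept probesets above the controls and a median signal of 106. Its 16 probesets are 8 positions that the array carries as pairs, and the means of a pair differed by 1.01 to 1.45 times. The pair nearest the low-coordinate end had signals of 464 and 491, and the table marks every one of the 16 as open to cross-hybridization.

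Because the ADP/ATP carriers showed both a bright and a background pattern, the sequences around their start sites (RefSeq, GRCm38.p6) are given for the 3 of them, from 250 bases before to 50 bases after the annotated start, at chr8:46211013-46211312 (minus strand), chrX:36795347-36795646 (plus strand) and chr3:40708621-40708920 (plus strand). Capitals mark TATAAG, letters that occur in the core of a TATA box, and TTCCCGC, the form of an E2F6-type element known from germ line genes. Each was searched on both strands, and the motifs did not overlap.
Slc25a4: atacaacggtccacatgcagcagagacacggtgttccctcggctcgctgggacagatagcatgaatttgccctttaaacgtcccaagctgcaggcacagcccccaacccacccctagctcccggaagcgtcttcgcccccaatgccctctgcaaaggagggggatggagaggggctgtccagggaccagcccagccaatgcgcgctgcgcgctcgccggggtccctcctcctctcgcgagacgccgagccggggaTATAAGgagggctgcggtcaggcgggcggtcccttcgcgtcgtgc
Slc25a5: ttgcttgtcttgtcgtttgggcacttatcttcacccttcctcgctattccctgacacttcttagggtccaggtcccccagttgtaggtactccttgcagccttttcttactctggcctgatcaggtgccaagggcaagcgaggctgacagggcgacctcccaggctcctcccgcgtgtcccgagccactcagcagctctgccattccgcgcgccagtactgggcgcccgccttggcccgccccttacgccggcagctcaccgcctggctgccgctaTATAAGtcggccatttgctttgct
Slc25a31: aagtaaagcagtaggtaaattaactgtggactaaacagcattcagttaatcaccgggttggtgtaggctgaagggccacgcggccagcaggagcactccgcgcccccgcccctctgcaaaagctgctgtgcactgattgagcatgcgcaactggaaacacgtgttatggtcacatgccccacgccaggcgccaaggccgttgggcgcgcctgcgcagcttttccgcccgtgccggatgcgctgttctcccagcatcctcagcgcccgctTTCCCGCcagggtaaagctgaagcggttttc
TATAAG begins 6 bases after the annotated start of Slc25a4 and 27 bases after that of Slc25a5, and is not in these letters of Slc25a31. TTCCCGC begins 20 bases after the annotated start of Slc25a31 and is not in the other windows. Of all 32851 promoter windows, 7.43% hold TATAAG and 4.6% hold TTCCCGC. Of the 39 windows of 30 carriers matched, 3 hold TATAAG (Slc25a4, Slc25a5 and Slc25a15) and 2 hold TTCCCGC (Slc25a31 and Slc25a11). The 3 windows hold 25, 18 and 22 CG pairs in the order printed, against a median of 7 over all windows and of 17 over the carrier windows. Of all windows, 83.1%, 71.9% and 78.5% hold no more. These matches describe the letters and say nothing of binding. The TATAAG matches of Slc25a4 and Slc25a5 lie after the annotated start, so they are not called TATA boxes of these starts.

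The carriers of ATP-Mg and phosphate that are regulated by calcium divided in the same way. Slc25a23 had 17 of 18 probesets above the controls, while Slc25a24 had 2 of 17, Slc25a25 had 4 of 26 and Slc25a41, a relative without the calcium-binding part, had 1 of 8. Slc25a25 is listed with 3 transcripts. Of the 21 probesets assigned to the first, 1 of them rejected at a signal of 49.0, 3 were above the controls, and of the 2 and 4 assigned to the others 0 and 1 were.

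In the malate-aspartate shuttle and glutamate group, 56 of 99 probesets were above the controls. The pair of aspartate-glutamate carriers differed against the controls. Slc25a12 (chromosome 2, 71112413 to 71204637), known as aralar and as the form of brain and muscle, had all 20 probesets above them. Slc25a13 (chromosome 6, 5991470 to 6141317), citrin, the form of liver, had 1 of 19, at a median signal of 184. The oxoglutarate carrier Slc25a11, the other arm of the shuttle, had 7 of 8 above, the glutamate carrier Slc25a22 had 14 of 18, and the citrate carrier Slc25a1 had 11 of 12. The dicarboxylate carrier Slc25a10 had 3 of 15. The oxodicarboxylate carrier Slc25a21 kept 7 of 13 probesets, with 0 above the controls.

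Of the amino acid and carnitine carriers, Slc25a38, the glycine carrier of heme synthesis, had 7 of 7 probesets above the controls, and Slc25a44, a carrier of branched-chain amino acids, 11 of 12. The ornithine carriers Slc25a2 and Slc25a15, the carnitine-acylcarnitine carrier Slc25a20, Slc25a29 and Slc25a45 each had 3 or fewer above. Of the cofactor and pyrimidine group, Slc25a16, Slc25a17 and Slc25a36 were mostly above the controls, and the S-adenosylmethionine carrier Slc25a26, the folate carrier Slc25a32, Slc25a33 and the coenzyme A carrier Slc25a42 were not. Only 2 of the 9 probesets of Slc25a36 match 1 place, and the others are open to cross-hybridization. The mitoferrins, which import iron, differed as well. Slc25a28, the widely used form, had 9 of 10 above, and Slc25a37, the form of red cell precursors, had 0 of 9. Erythroid markers themselves were mostly dim (2 of 16 had most probesets above the controls, and 10 of 16 had none), although those of the adult hemoglobin genes Hba-a1 and Hbb-b1 were bright, and the summed signal of the list was 17880 to 21430 in wildtype and 19010 to 22550 in KIS-ko brains.

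Of the relatives of the uncoupling proteins, Slc25a27 (UCP4), known as the neuronal form, had 13 of 16 probesets above the controls, Slc25a30 had 6 of 11 and Slc25a14 (UCP5) had 4 of 16. Ucp1 of brown fat, which the rule does not take in, had none above the controls. Slc25a46, which sits in the outer membrane and takes part in its fission, had 10 of 13. Slc25a34, a carrier with no substrate assigned here, had 1 of 4 kept probesets above the controls, at a signal of 3209, and the other 3 lay between 99.7 and 228.

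The second question was whether the carriers differed between genotypes within litters, which was tested with limma on all genes, with the litter as a block. Of 40 carriers, 0 passed an adjusted p of 0.05, where 0.00579% of all genes did (1 of 17279, Uhmk1). At an unadjusted p of 0.05, 1 carrier passed (2.5%), against a background of 6.16% of all genes. It was lower in KIS-ko (background 4.34%), and 0 carriers passed as higher (background 1.82%). The adjusted p-values of the carriers ran from 0.685 to 0.987. The genotype groups overlapped in all 40 carriers, where 0.208% of all genes had groups that did not overlap.

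Most carriers had a slightly lower value in the KIS-ko brains. The fitted difference was below 0 in 35 of 40 (87.5%), against 69.8% of all genes, and the median log2 difference of the carriers was -0.052, against -0.036 over all genes. Leftover differences between the array medians move with this count. With the arrays centred on their medians, 19 of 40 carriers (47.5%) lay below 0, against 38.7% of all genes, and the median became 0.005, against 0.018. With another quantile normalization it was 24 of 40 and -0.024, against 48.6% and 0.002. The 95% intervals of single carriers reached at lowest -0.31 and at highest 0.24, and in 35 of 40 they lay within 0.25 log2 units of 0 on both sides.

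**Figure D2:**
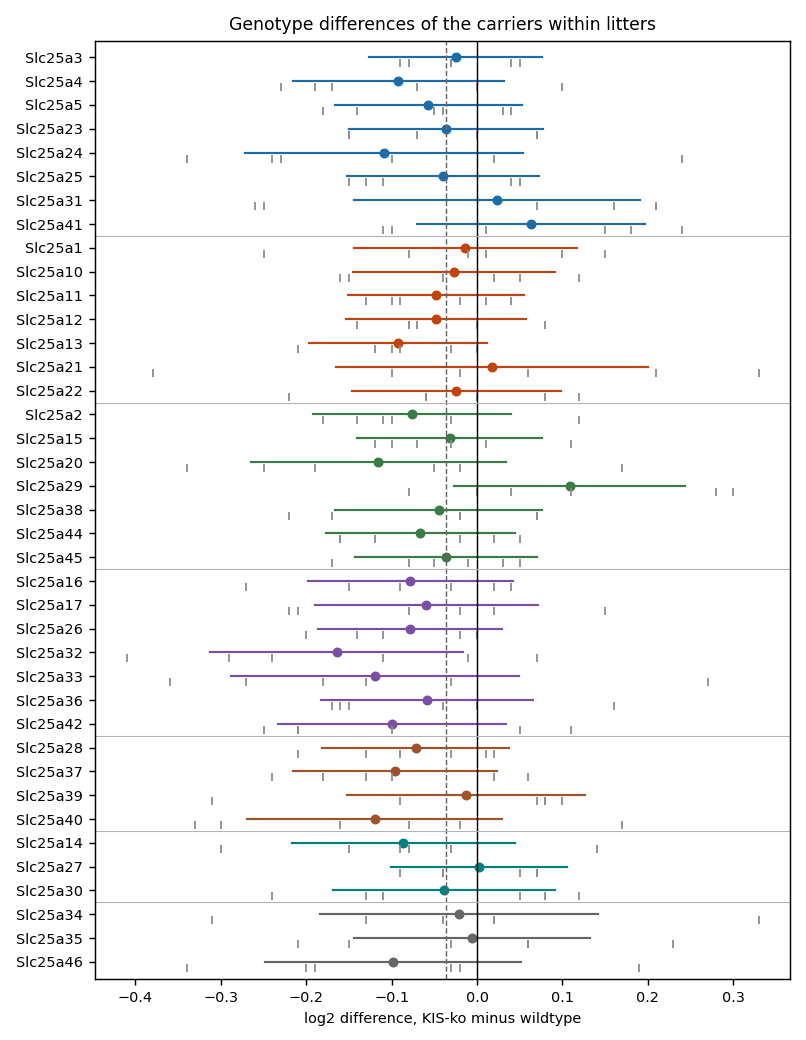
Log2 difference between KIS-ko and wildtype (points) with its 95% interval from limma (lines) for 39 of the 40 carriers, ordered and coloured by role as in the plot of signals, with the 6 within-litter differences as grey ticks. The dashed line marks the median of all genes (-0.036), and the interval of Slc25a32 is the only one that leaves out 0.

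Slc25a32 (chromosome 15, 38925857 to 38944139), which brings folate into the matrix and is also linked to the transport of FAD, was the carrier past the unadjusted threshold and the one with the largest difference. Its lowest, median and highest gene values were 8.63, 8.84 and 8.97 in the wildtype brains and 8.49, 8.68 and 8.73 in the KIS-ko brains. The groups overlapped, with 2 KIS-ko brains below every wildtype brain, that of litter 6 and, only just, that of litter 1, and the other KIS-ko brains in the lower part of the wildtype range. The log2 difference was -0.16 (SE 0.0668, 95% interval -0.31 to -0.02), with an unadjusted p of 0.0330 and an adjusted p of 0.685 from limma. In litters 1 to 6 it was -0.29, -0.24, 0.07, -0.01, -0.11 and -0.41, so that 5 of 6 litters were lower (two-sided exact permutation test by sign flips, p = 0.0938, where 6 pairs cannot give less than 0.03125). All 12 probesets were lower in KIS-ko. Only 1 of the 12 was above the 95th percentile of the controls.

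The next largest differences were those of Slc25a33, Slc25a40, Slc25a20 and Slc25a24. Slc25a33, a carrier of pyrimidine nucleotides, had lowest, median and highest values of 7.99, 8.196 and 8.33 in the wildtype brains and 7.86, 8.07 and 8.25 in the KIS-ko brains. Its log2 difference was -0.12 (SE 0.076, 95% interval -0.29 to 0.05, limma adjusted p = 0.685), lower in 5 of 6 litters and higher by 0.27 in litter 4. Slc25a40, a glutathione carrier, had values of 8.298, 8.47 and 8.63 in the wildtype brains and 8.002, 8.38 and 8.49 in the KIS-ko brains. The lowest KIS-ko value, that of litter 5, lay below every wildtype brain, and the difference was -0.12 (SE 0.0672, 95% interval -0.27 to 0.03, limma adjusted p = 0.685). All 16 of its probesets were lower, and only 1 of the 16 was above the 95th percentile of the controls.

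Slc25a20, which carries acylcarnitines to fatty acid oxidation, had values of 8.71, 8.97 and 9.08 in the wildtype brains and 8.52, 8.84 and 8.99 in the KIS-ko brains, and a difference of -0.12 (SE 0.0673, 95% interval -0.26 to 0.03, limma adjusted p = 0.685). Slc25a24, an ATP-Mg carrier, had values of 8.24, 8.54 and 8.7 in the wildtype brains and 8.12, 8.43 and 8.596 in the KIS-ko brains, and a difference of -0.11 (SE 0.0733, 95% interval -0.27 to 0.05, limma adjusted p = 0.686). In both genes the KIS-ko brain of litter 4 was above its littermate, and 5 and 4 of 6 litters were lower. The size of these differences depended on the setting. With arrays centred on medians, the log2 differences of Slc25a32, Slc25a33, Slc25a40, Slc25a20 and Slc25a24 were -0.11, -0.07, -0.07, -0.06 and -0.05. With 1 litter left out, Slc25a32 ran from -0.21 (without litter 3) to -0.12 (without litter 6), Slc25a33 from -0.23 (without litter 4) to -0.07 (without litter 6), Slc25a40 from -0.18 (without litter 4) to -0.08 (without litters 5 or 6), Slc25a20 from -0.17 (without litter 4) to -0.07 (without litter 6), and Slc25a24 from -0.18 (without litter 4) to -0.06 (without litter 2). With the median over probesets those of Slc25a24 and Slc25a40 were -0.01 and -0.18, and with dim probesets left out they were -0.17 and -0.04. Without the dim ones, 2 of 17 probesets of Slc25a24 and 1 of 16 of Slc25a40 remained. The difference in the other direction that was largest was that of Slc25a29, a carrier of basic amino acids, named after its values were seen. Its KIS-ko values lay close together, from 8.13 to 8.25, while the wildtype ones spread from 7.86 to 8.24, and the difference was 0.11 (SE 0.061, 95% interval -0.03 to 0.24, limma adjusted p = 0.685). In litters 1 to 6 it was -0.08, 0.30, 0.11, 0.04, 0.00 and 0.28, so that litters 2 and 6 held the largest differences.

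**Figure D3:**
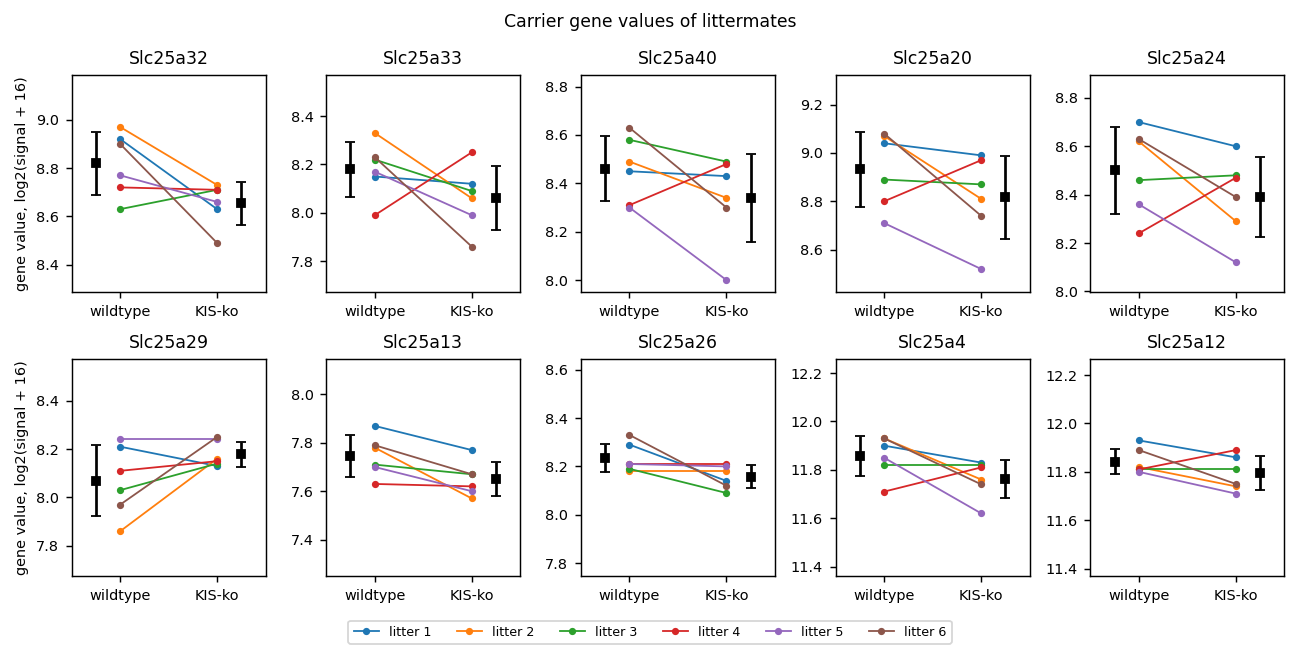
Gene values, log2(signal + 16), of wildtype and KIS-ko littermates for 10 carriers, 1 line per litter, with the mean and SD of each genotype (black squares and bars, n = 6). All panels span the same height, and litter 4 (red) rises in Slc25a33, Slc25a40, Slc25a20 and Slc25a24, where litters 2, 5 and 6 fall.

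No ADP/ATP or phosphate carrier passed the test, and of Slc25a3, Slc25a4, Slc25a5 and Slc25a31 the furthest below 0 was Slc25a4. Slc25a3 had lowest, median and highest values of 12.15, 12.18 and 12.26 in the wildtype brains and 12.08, 12.18 and 12.23 in the KIS-ko brains, with a difference of -0.03 (SE 0.0457, 95% interval -0.13 to 0.08, limma adjusted p = 0.841). Slc25a4 had values of 11.71, 11.87 and 11.93 in the wildtype brains and 11.62, 11.79 and 11.83 in the KIS-ko brains. Its difference was -0.09 (SE 0.0557, 95% interval -0.22 to 0.03, limma adjusted p = 0.685), all 10 of its probesets were lower, and without litter 4 it was -0.13 (unadjusted p = 0.029, limma adjusted p = 0.179). Slc25a5 had values of 11.88, 11.93 and 11.98 in the wildtype brains and 11.78, 11.901 and 11.92 in the KIS-ko brains, and a difference of -0.06 (SE 0.0495, 95% interval -0.17 to 0.05, limma adjusted p = 0.707). For Slc25a31, at the level of the controls, the values were 6.901, 6.98 and 7.27 in the wildtype brains and 6.94, 7.04 and 7.22 in the KIS-ko brains, and the difference was 0.02 (SE 0.0754, 95% interval -0.14 to 0.19, limma adjusted p = 0.912), a sign that turned when every probeset was used. Over the 8 genes of this role the differences ran from -0.11 to 0.06, and 6 were below 0, or 2 with arrays centred on medians.

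In the shuttle and glutamate group, Slc25a12 had values of 11.798, 11.82 and 11.93 in the wildtype brains and 11.71, 11.78 and 11.89 in the KIS-ko brains, and its difference was -0.05 (SE 0.0475, 95% interval -0.15 to 0.06, limma adjusted p = 0.729). Slc25a11 had values of 11.37, 11.49 and 11.56 in the wildtype brains and 11.28, 11.46 and 11.54 in the KIS-ko brains, with a difference of -0.05 (SE 0.0463, 95% interval -0.15 to 0.05, limma adjusted p = 0.727). The groups overlapped in both genes, with 3 of 6 KIS-ko brains below every wildtype brain for Slc25a12 and 1 of 6 for Slc25a11. Slc25a13 had values of 7.63, 7.74 and 7.87 in the wildtype brains and 7.57, 7.65 and 7.77 in the KIS-ko brains. It was lower in 6 of 6 litters by 0.00 to 0.21 log2 units, the smallest p that 6 pairs allow (two-sided exact permutation test by sign flips, p = 0.03125), with a difference of -0.09 (SE 0.047, 95% interval -0.197 to 0.01, limma adjusted p = 0.685). Of the carriers 2 of 40 (5%), Slc25a13 and Slc25a26, moved the same way in all 6 litters, against a background of 2.52% of all genes. With dim probesets left out, 1 probeset of Slc25a13 remained and its difference was 0.04.

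Slc25a22, a glutamate carrier whose loss is known from early epileptic encephalopathy, had values of 10.03, 10.13 and 10.22 in the wildtype brains and 10, 10.06 and 10.26 in the KIS-ko brains, and a difference of -0.02 (SE 0.0551, 95% interval -0.15 to 0.098, limma adjusted p = 0.874). Slc25a1, which exports citrate for lipid synthesis, had values of 10.72, 11.01 and 11.14 in the wildtype brains and 10.704, 10.99 and 11.12 in the KIS-ko brains. It spread widely within both genotypes and its difference was -0.01 (SE 0.0589, 95% interval -0.14 to 0.12, limma adjusted p = 0.934). Slc25a38 had values of 10.66, 10.69 and 10.78 in the wildtype brains and 10.46, 10.69 and 10.77 in the KIS-ko brains, and a difference of -0.04 (SE 0.0547, 95% interval -0.17 to 0.08, limma adjusted p = 0.765).

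Among the mitoferrins, Slc25a28 had values of 10.25, 10.31 and 10.42 in the wildtype brains and 10.11, 10.25 and 10.33 in the KIS-ko brains, with a difference of -0.07 (SE 0.0492, 95% interval -0.18 to 0.04, limma adjusted p = 0.686). Slc25a37 had values of 8.16, 8.25 and 8.405 in the wildtype brains and 8.06, 8.18 and 8.28 in the KIS-ko brains, with a difference of -0.096 (SE 0.0538, 95% interval -0.22 to 0.02, limma adjusted p = 0.685). Both were lower in 4 of 6 litters. The erythroid markers had a median difference of 0.04 and 3 of 16 were below 0. At an unadjusted p of 0.05, 1 of them was higher (Hbb-bh1, an embryonic hemoglobin gene with no probeset above the controls, by 0.21, limma unadjusted p = 0.012) and 0 were lower. Of all genes, 1.82% passed as higher and 4.34% as lower. Their part in the values of Slc25a37 was not tested. In the cofactor and pyrimidine group, 8 of 8 genes were below 0, with a median of -0.09, and in the iron and glutathione group 4 of 4 were, with a median of -0.08, where 69.8% of all genes lay below 0 with a median of -0.036. With arrays centred on medians these groups had 8 of 8 and 3 of 4 below 0, with medians of -0.03 and -0.03, against 38.7% and 0.018 over all genes. They are the groups with the lowest medians among all role groups. Below 0 were also 6 of 7 genes of the shuttle and glutamate group and 6 of 7 of the amino acid and carnitine group. It was 2 of 3 for the uncoupling protein relatives and 3 of 3 for the group of Slc25a46. With arrays centred on medians these counts became 1, 3, 1 and 1.

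For the uncoupling protein relatives, Slc25a27 had values of 10.08, 10.27 and 10.301 in the wildtype brains and 10.04, 10.26 and 10.37 in the KIS-ko brains, and the difference was 0.00 (SE 0.0465, 95% interval -0.10 to 0.11, limma adjusted p = 0.987). Slc25a14 had values of 8.45, 8.61 and 8.69 in the wildtype brains and 8.36, 8.54 and 8.64 in the KIS-ko brains, and a difference of -0.09 (SE 0.0588, 95% interval -0.22 to 0.04, limma adjusted p = 0.686). Slc25a46 had values of 10.29, 10.44 and 10.496 in the wildtype brains and 10.16, 10.33 and 10.48 in the KIS-ko brains. Its difference was -0.099 (SE 0.0677, 95% interval -0.25 to 0.05, limma adjusted p = 0.686), and all 13 of its probesets were lower. Every probeset was lower in 8 of 40 carriers (20%, background 11.1%), and in 0 of 40 with arrays centred on medians (background 3.98%).

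The differences of Slc25a4, Slc25a14, Slc25a46 and Slc25a37 depended on the setting as well. With arrays centred on medians they were -0.04, -0.03, -0.04 and -0.04. With 1 litter left out, Slc25a4 ran from -0.13 (without litter 4) to -0.07 (without litters 5 or 6), Slc25a14 from -0.13 (without litter 4) to -0.04 (without litter 6), Slc25a46 from -0.13 (without litter 4) to -0.05 (without litter 6), and Slc25a37 from -0.16 (without litter 4) to -0.07 (without litters 2 or 6). That of Slc25a14 was -0.003 with dim probesets left out and -0.03 with the relative SD filter at 0.2. That of Slc25a28 was -0.02 with arrays centred on medians and -0.04 without litter 3. With 1 litter left out, Slc25a3 ran from -0.05 (without litter 4) to -0.01 (without litters 1 or 6), Slc25a5 from -0.08 (without litter 3) to -0.03 (without litter 2), Slc25a11 from -0.07 (without litter 4) to -0.03 (without litter 2), Slc25a12 from -0.07 (without litter 4) to -0.03 (without litter 6), and Slc25a38 from -0.07 (without litters 4 or 5) to -0.01 (without litter 2). With the median over probesets, Slc25a3 was at -0.08 and Slc25a13 at -0.05.

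Within most litters the carriers lay largely on 1 side of 0, and that side was not the same in every litter. In litters 1 to 6, 31, 33, 17, 8, 30 and 36 of the 40 carriers were lower in the KIS-ko brain than in its littermate. The corresponding shares of all genes were 64.7%, 69.1%, 49.0%, 30.3%, 66.1% and 70.4%. The median difference of the carriers was -0.07, -0.15, 0.01, 0.07, -0.05 and -0.15, where the medians of all genes were -0.05, -0.09, 0.00, 0.07, -0.05 and -0.11. The log2 difference between the deposited array medians of the pair was -0.08, -0.13, -0.03, 0.10, -0.04 and -0.17 in the same litters. Litter 4, the only litter with more carriers higher than lower by a wide margin, is the litter where the KIS-ko array had the higher median. Relative to the median of all genes of the same litter, 25, 29, 18, 21, 20 and 25 of the 40 carriers were lower.

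**Figure D4:**
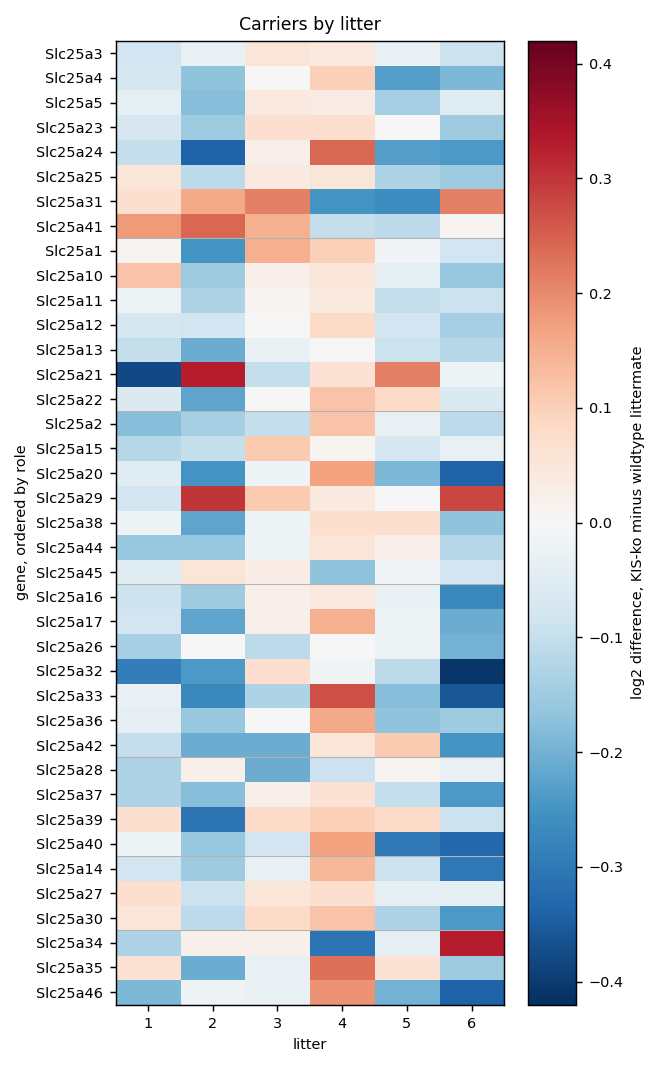
Log2 difference between the KIS-ko brain and its wildtype littermate for 39 of the 40 carriers (rows, ordered by role) in the 6 litters (columns), blue for lower and red for higher in KIS-ko. Litters 2 and 6 are mostly blue (33 and 36 of all 40 carriers lower) and litter 4 is mostly red (32 of all 40 higher).

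The number of carriers past the unadjusted threshold depended on litter 4. Without it, 11 of 40 carriers passed (27.5%, against 23.3% of all genes), all of them lower in KIS-ko, and 0 passed after adjustment (lowest adjusted p = 0.120, limma, for Slc25a33). Among them were Slc25a2, Slc25a4, Slc25a14, Slc25a20, Slc25a24, Slc25a32, Slc25a33, Slc25a37, Slc25a40 and Slc25a46. With any other litter left out, 0 to 2 carriers passed (0 to 5%), against 3.35% to 6.82% of all genes.

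The measure of the study averages the KIS-ko over wildtype ratios of each probeset and weights the probesets by how steady that ratio was over the litters. By this measure 7 of 40 carriers (17.5%) changed by at least 6%, against a background of 26.4% of all genes. The paper reports a smaller share of genes at this limit, so the measure as computed here does not reproduce it. More of all genes were higher (17.5%) than lower (8.84%) by it, although 69.8% had a fitted log2 difference below 0. In the paper's list of top genes most were lower. Of the 7 carriers, 3 were lower (7.5%, background 8.84%), Slc25a32 at 0.918 times wildtype, Slc25a45 at 0.925 and Slc25a2 at 0.940. For Slc25a45 the gene value differed by only -0.04 on the log2 scale and 3 of 7 probesets were lower, with the widest difference, -0.35, in a dim probeset (signal 145). Slc25a2 rested on 3 probesets, 2 of them lower. The other 4 were higher (10%, background 17.5%), Slc25a21 at 1.07, Slc25a31 at 1.07, Slc25a41 at 1.09 and Slc25a29 at 1.1, and none of these had more than 1 probeset above the controls. On the log2 scale the gene values of Slc25a21 and Slc25a31 differed by only 0.02 each, and those of Slc25a41 and Slc25a29 by 0.06 and 0.11. Just short of this limit were Slc25a20 at 0.942 and Slc25a37 at 0.945. The split depended on the setting. It was 3 lower and 1 higher with the relative SD filter at 0.2 (background 21.1% either way), 2 and 2 without litter 2 (23.5%), 0 lower and 5 higher with arrays centred on medians (32.8%), 0 lower and 4 higher with another quantile normalization (29.4%), and 11 lower and 4 higher without litter 4 (44.2%).

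Single probesets were tested to see whether a change was confined to a part of a gene. Of the 463 carrier probesets, 0 passed an adjusted p of 0.05 (background 0.00487% of 205469 probesets), and 29 passed unadjusted (6.26%, background 6.63%), 25 of them lower (5.4%, background 4.72%) and 4 higher (0.864%, background 1.91%). Irrespective of p, 339 of the 463 (73.2%) were below 0, against 66.2% of all probesets. The lowest p belonged to the fifth of the 8 probesets of Slc25a45 (chromosome 19, 5880441 to 5880529), with mean signals of 165 in wildtype and 126 in KIS-ko and a log2 difference of -0.35 (SE 0.0608, limma adjusted p = 0.512). Set against the mean of its own gene, as a splicing index, 0 of 463 probesets passed (background 0.000985%) and 29 passed unadjusted (6.26%, background 6.11%). The lowest p was again that of the Slc25a45 probeset, which lay 0.32 below its gene (log2 difference -0.32, SE 0.0507, limma adjusted p = 0.502). A probeset of Slc25a39 (chromosome 11, 102267529 to 102267554) was next, with a difference of -0.46 against its gene (SE 0.0858, limma adjusted p = 0.585). Both probesets were dimmer than the 95th percentile of the controls.

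Levels at birth were also compared between litters, by the litter terms of the same fit. They were called in 0 of 40 carriers (limma F test, background 0.00% of all genes after adjustment), and 3 passed unadjusted (7.5%, background 11.3%), Slc25a17, Slc25a1 and Slc25a2. Slc25a17, a carrier of the peroxisome, spread most between brains of 1 genotype, from 10.39 to 10.91 in wildtype (SD 0.195, n = 6). The median SD within a genotype was 0.0854 over the carriers in wildtype and 0.107 in KIS-ko, where the medians over all genes were 0.105 and 0.113. The array holding the lowest value of a carrier was most often the KIS-ko brain of litter 5 (13 of 40), and the one holding the highest was most often the wildtype brain of litter 6 (11 of 40). These arrays had the lowest and the highest median signal (460 and 526), and they held the lowest value of 22.6% and the highest value of 15.7% of all genes.

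Genes that work with the carriers, from lists of carriers named otherwise, outer membrane channels and import factors, shuttle enzymes and ATP synthase subunits, were fitted alongside. Of 48 measured, 0 passed the adjusted threshold (background 0.00579%) and 0 the unadjusted one (background 6.16%), and 45 were below 0 (93.8%, background 69.8%), with a median difference of -0.06. With arrays centred on medians, 23 of 48 were below 0 (47.9%, background 38.7%). The lowest unadjusted p was that of the ATP synthase subunit gene Atp5f1, with a log2 difference of -0.10 (SE 0.052, limma adjusted p = 0.685). The channels Vdac1, Vdac2 and Vdac3 of the outer membrane differed by -0.04, -0.11 and -0.07, and the aspartate aminotransferases Got1 and Got2 of the shuttle by -0.06 and -0.04. The partner genes ran from -0.11 to 0.06 and the carriers from -0.16 to 0.11, a log2 difference in both cases.

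Markers of cell types were counted beside them. Of 9 markers of astrocytes and radial glia 9 were below 0, where 69.8% of all genes were (median -0.09, 1 at an unadjusted p of 0.05, which 6.16% of all genes passed). Their summed signal was 30950 to 35260 in wildtype and 29040 to 32800 in KIS-ko brains. Of 10 neuronal markers 8 were below 0 (median -0.03, 0 at that threshold). Below 0 were also 7 of 9 markers of meninges and fibroblasts (median -0.09, 1 at that threshold), 7 of 8 of endothelium (median -0.07), 7 of 10 of the oligodendrocyte lineage (median -0.04), 6 of 8 of microglia (median -0.03) and 3 of 7 of choroid plexus (median 0.00). Markers of brown fat (4 of 5 with no probeset above the controls) and of skeletal muscle (summed signal 3802 to 4813 in wildtype and 3793 to 4274 in KIS-ko brains) overlapped between genotypes. The part of these cell types in the values of the carriers was not tested.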

How the data were processed

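Affymetrix Mouse Exon 1.0 ST arrays were hybridized with RNA of 12 newborn brains. The authors processed them with the Affymetrix Expression Console, quantile normalization at the exon level and PLIER, and the deposited intensity is the linear PLIER signal of each probeset. The genome build of its positions is not given in the sources used here. No column of another sample was present. The members and all lists were chosen with earlier results of these data known.

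Main probesets with a symbol were kept at a relative SD of at most 0.4 in both genotypes (205469 probesets of 17279 genes). Gene values, the mean of log2(signal + 16), were tested with limma 3.58.1 (R 4.3.3) in a fit of genotype and litter (as a block), at a Benjamini-Hochberg adjusted p of 0.05 over all genes. Probesets, alone and against the mean of their gene (at least 3 probesets), were tested likewise. The script was tested on simulated data. The labels give each pair 1 litter, and deviations of littermates from their genotype means correlated between -0.089 and 0.249. Single genes were checked by the exact permutation test by sign flips. A pseudocount of 16 understates changes of dim genes, and the number of arrays limits the precision.

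Values were given for carriers at an unadjusted p under 0.05, the 5 of largest difference and 17 of known role, of which Slc25a18 was not matched. One carrier enters the counts and is not reported here singly. Alternatives left out the litter block, the filter, dim probesets, probesets matching several places or each litter in turn, or used pseudocounts of 1 and 64, a filter at 0.2, arrays centred on medians, a second quantile normalization, medians of probesets, or trend and robust moderation. Plots were drawn with Python 3.11.15, pandas 2.3.3 and matplotlib 3.10.9.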

Additional observations from a re-analysis of the deposited data

Results flagged for a closer look

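The 6 gene values of each genotype were searched for a value far from the others in 39 carriers, and 1 of 78 groups held one, where chance gives about 1 in 20. The wildtype brain of litter 5 had a value of 10.08 for Slc25a27, while the other wildtype brains lay between 10.24 and 10.30. Its KIS-ko littermate, at 10.04, was likewise the lowest of its genotype. The 2 arrays of litter 5 had the lowest median signals of their genotypes, 473 and 460. The cause was not tested.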

How the results depend on the processing

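No alternative called a carrier, a litter difference among the carriers (which needs the block) or a partner gene after adjustment. Carrier probesets, alone or against their gene, were refitted with other pseudocounts, normalizations and probesets matching 1 place, without the block and without each litter, and none was called. They were not refitted with other filters or moderation. Without the replicate block, the paired term for litters, 0 carriers were called and the median difference stayed at -0.052. At the unadjusted threshold 1 carrier passed (2.5%, against 5.89% of all genes). The number of carriers at an unadjusted p of 0.05 became 3 without the relative SD filter (5.9% of all genes) and 2 with dim probesets left out (5.64%). It became 0 with arrays centred on medians (6.42% of all genes), 0 with arrays quantile-normalized again (7.03%) and 0 with the median over probesets (6.31%). With 1 litter left out it ran from 0, without litters 2 or 6 (3.76% and 3.35%), to 11, without litter 4 (23.3%). The number changed by at least 6% became 4 with the filter at 0.2 (10% of carriers, 21.1% of all genes) and 4 with arrays quantile-normalized again (10%, 29.4%), and ran from 4 without litter 2 (10%, 23.5%) to 15 without litter 4 (37.5%, 44.2%). The median difference ran from -0.072 to -0.040 with 1 litter left out.

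Several small differences of the carriers named changed sign, none of them called after adjustment. With arrays centred on medians, Slc25a1 gave 0.04, Slc25a3 0.03, Slc25a5 0.0002, Slc25a11 0.0091, Slc25a12 0.0093, Slc25a22 0.03 and Slc25a38 0.01. With arrays quantile-normalized again, Slc25a1 gave 0.01, Slc25a3 0.0074 and Slc25a22 0.01. With the median over probesets, Slc25a1 gave 0.0028, Slc25a27 -0.02 and Slc25a31 -0.07. Slc25a13 gave 0.04 with dim probesets left out, and Slc25a31 gave -0.03 without the relative SD filter. With 1 litter left out, Slc25a1 ran from -0.05 to 0.03, Slc25a22 from -0.05 to 0.02, Slc25a27 from -0.01 to 0.02 and Slc25a31 from -0.01 to 0.06. Apart from centring and the second quantile normalization, which set the level by construction, the cause was not tested. Half-widths of the 95% intervals ran from 0.102 to 0.182 log2 units. These intervals are not adjusted for the number of genes tested, so they give no limit of detection for the adjusted test. Slc25a32, at -0.16, had an interval that left out 0 and a limma adjusted p of 0.685. Changes of single carriers of this size or larger could thus go uncalled with 6 pairs. Carriers at the level of the intron controls could show only part of a change.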
